A study of Mus musculus with 12 samples.

Results

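The chemokines, cytokines and receptors described here were the genes whose symbol starts with Ccl, Cxcl, Ccr, Cxcr or Ackr and a digit, the genes named Il with digits and optional letters only, and the listed genes Cx3cl1, Cx3cr1, Csf1, Csf2, Csf3, Lif, Osm, Mif and Tnf. Il6st, Il6ra and Il10rb were not part of the set. These symbols gave 118 genes of 19938 measured on the array. They comprised 19 CC chemokines, 14 CXC and CX3C chemokines, 21 chemokine receptors, 33 interleukins, 22 interleukin receptor chains, 7 other cytokines, the soluble binding protein Il18bp and the antisense transcript Il1bos.

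RNA was measured in ZsGreen-positive tumor cells sorted from the brains of 12 FVB mice, 6 bearing pEGFR-Hi tumors and 6 bearing pEGFR-Lo tumors, with 1 Affymetrix Mouse Gene 1.0 ST array per mouse. Both groups carried the same engineered lesions: neural progenitor cells without Ink4a/Arf, transduced with human EGFRvIII, a constitutively active EGF receptor. pEGFR-Hi was a tumor progenitor line with high EGFRvIII phosphorylation and pEGFR-Lo a line of low phosphorylation from the same parental pool, both carried through mice before use. Each mouse received 2 µl at 200000 cells per µl into the brain. The mice's ages are not given in the sources used here. Brains were taken at the median survival of each group, which differed in time, so tumor line and time since injection cannot be told apart. Each group was 1 line, and the p-values measure spread among mice, not among lines. A Percoll gradient had cleared myelin and erythrocytes, and DAPI-stained dead cells were gated out. The values are log2 signals after RMA, a procedure that corrects background, gives all arrays 1 distribution and combines the probes for a gene region into 1 value per probe set.

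Chemokines are small secreted proteins that bind G protein-coupled receptors and direct the movement of cells, while atypical receptors such as Ackr3 bind chemokines without G protein signaling and remove them. Many cytokines act through receptor chains that signal by JAK and STAT proteins, while the interleukin-1 and TNF families signal to NF-kB, the former through Myd88. In brain tumors these proteins are made by tumor cells, glia, vessels and infiltrating leukocytes, and interferon is a well-known inducer of Cxcl9, Cxcl10 and Cxcl11.

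In 2 of the 6 pEGFR-Lo mice, replicates 3 and 6, interferon response genes were low, and several of the genes described here were low with them. The mean RMA value of 26 interferon response genes was 7.92 to 8.98 in pEGFR-Hi mice. Among pEGFR-Lo mice, these 2 had means of 5.50 and 5.44, while the remaining 4 ranged between 6.70 and 7.19. Calls that these 2 mice decide, and values that they move most, are given with and without them.

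The background level was an RMA value of 4.10, below which lay the means of 95% of 1027 olfactory receptor genes, which stand in for genes these cells do not use. Of the 118 genes, 57 had a mean over the 12 mice above it, 3 more (Il15, Ccl3 and Il27ra) exceeded it only in the pEGFR-Lo mean, and 58 were above it in neither group. The genes nearest the limit were Il21r at 4.14 and Cxcr1 at 4.18 above it, and Cxcr3 at 4.02 and Ccl4 at 4.01 below it. By class, 10 of the CC chemokines, 8 of the CXC and CX3C chemokines, 8 of the chemokine receptors, 14 of the interleukins, 12 of the interleukin receptor chains, 4 of the other cytokines and Il18bp were above background. Il1bos was not.

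Between the tumor types, CXC chemokines of the interferon-inducible kind, Cxcr4, Ccl5 and Ccl11 were higher in pEGFR-Hi, while Il33, Il34, Il17d, Il15, the receptor chain Il1rap and the atypical receptor Ackr3 were lower. A gene was called at a limma adjusted p under 0.01 and at least a 2-fold difference. By this rule 6 of the 118 genes were called higher (5.08%), against 3.99% of all 19938 genes, and 6 were called lower (5.08%), against 5.06% of all genes. Both shares were close to those of the whole array, so over all 118 genes the number of calls is not a particular feature. However, 58 of the 118 were above background in neither group, and none of these was called. Of the 57 genes with a mean above background, 6 were called higher and 5 lower. Of all genes above background, 5.77% and 7.23% were called higher and lower, so the share called higher was larger in the 57. No test was made of these shares. The median log2 difference of the 118 genes was -0.017, against 0.010 over all genes. In 14 of the 118 genes (11.9%) the 6 pEGFR-Hi and 6 pEGFR-Lo values did not overlap, against 23.3% of all genes. The 46 uncalled genes above background differed by -0.73 to 0.80 on the log2 scale. In sorted bulk RNA, fewer cells that express a gene and less of its RNA per cell cannot be told apart.

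**Figure D1:**
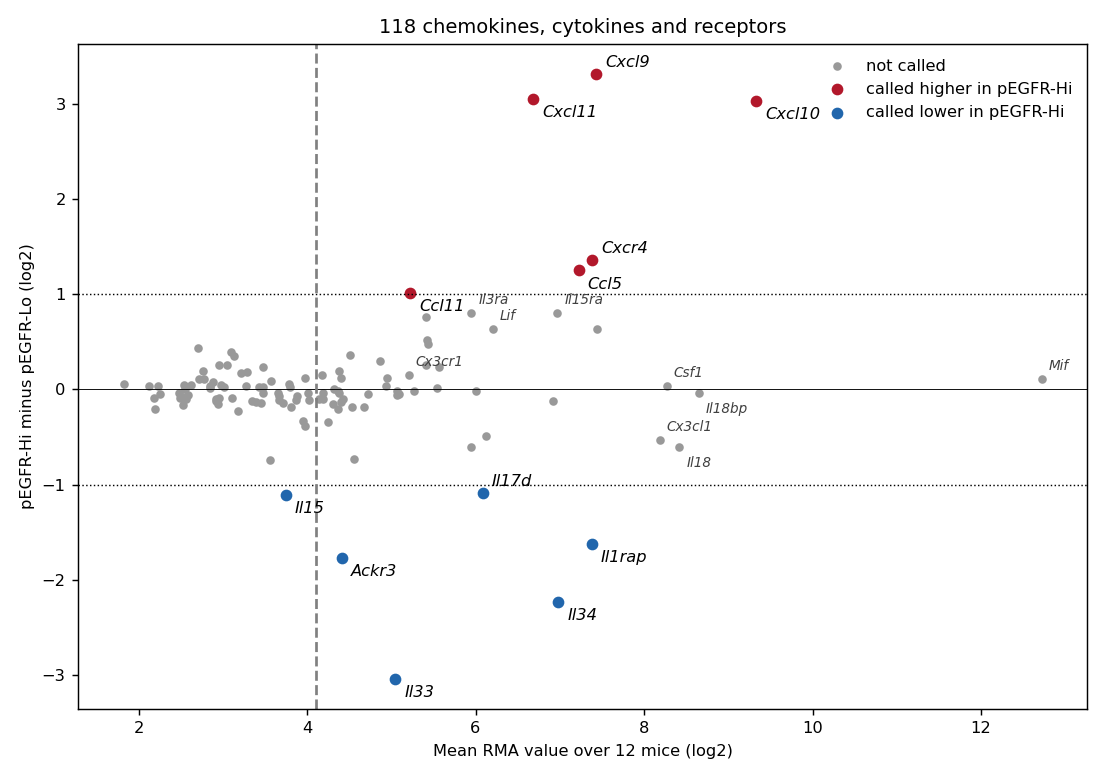
Each point is 1 of the 118 genes, with its mean RMA value over the 12 mice (log2, horizontal axis) and its pEGFR-Hi minus pEGFR-Lo difference (log2, vertical axis). Red and blue points are the 6 genes called higher and the 6 called lower in pEGFR-Hi, grey points are not called, dotted lines mark 2-fold and the dashed line marks the background level of 4.10; most genes lie close to no difference, and Cxcl9, Cxcl11 and Cxcl10 stand above 3.

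The 3 ligands of the receptor Cxcr3, which draw activated T and NK cells into tissue, had the largest differences upward. The promoters of Cxcl9 and Cxcl10 are shown first, since these genes are neighbours on chromosome 5 and were measured with large differences in the same direction. Cxcl11, on the same chromosome and with a large difference in the same direction, is named only, because the promoter annotation used held no window for it. Both sequences run from 250 bases before the start of the transcript to 50 bases after it, taken from the RefSeq annotation of GRCm38.p6. Capitals mark, in order, a match to the interferon-stimulated response element (ISRE, searched as GAAA, any 2 bases and GAAA) and 2 matches to the NF-kB consensus. The Cxcl9 window lies on the minus strand at chr5:92328030-92328329 and the Cxcl10 window on the minus strand at chr5:92348840-92349139.
Cxcl9: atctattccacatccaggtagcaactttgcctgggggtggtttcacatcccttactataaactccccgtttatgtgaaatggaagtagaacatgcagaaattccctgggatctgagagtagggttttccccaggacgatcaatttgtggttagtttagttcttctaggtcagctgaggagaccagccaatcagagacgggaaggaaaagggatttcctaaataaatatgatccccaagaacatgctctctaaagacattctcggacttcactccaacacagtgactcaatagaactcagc
Cxcl10: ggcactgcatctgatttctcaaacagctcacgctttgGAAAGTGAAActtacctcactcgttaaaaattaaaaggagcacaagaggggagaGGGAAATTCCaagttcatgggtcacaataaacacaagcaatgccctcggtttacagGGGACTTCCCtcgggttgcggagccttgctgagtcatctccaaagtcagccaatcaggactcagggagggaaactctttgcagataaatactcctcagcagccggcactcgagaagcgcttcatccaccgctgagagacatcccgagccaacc

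In Cxcl10 the ISRE match covers positions -213 to -204 and the NF-kB matches cover -159 to -150 and -103 to -94, with the start counted as base 1. The Cxcl9 window held no match to ISRE, to NF-kB or to the gamma-activated site (GAS, searched as TTC, any 3 bases and GAA), which says only that these letters are not in it. All searches covered both strands. Promoters were found in the table for 42 of the 60 genes above background in at least 1 group, and the ISRE letters stood in 4 of them, those of Ccl19, Cxcl10, Cxcl14 and Il1rap. Of all genes in the table, 3.99% had a window with the ISRE letters (3.44% of its 32851 windows). GAS letters stood in 3 of the 42 (Ccl17, Cxcl14 and Il17d), against 9.55% of all genes and 8.3% of all windows. The NF-kB consensus stood in 6 (Ackr2, Csf1, Cxcl1, Cxcl10, Il16 and Il4ra), against 5.14% of all genes and 4.51% of all windows. Genes with a match thus included called genes of both directions, Cxcl10 upward and Il1rap and Il17d downward, and uncalled ones.

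Cxcl10, also called IP-10, had a lowest, median and highest RMA value of 10.47, 10.78 and 11.46 in pEGFR-Hi mice, against 4.81, 8.19 and 10.13 in pEGFR-Lo mice. All pEGFR-Hi mice were above all pEGFR-Lo mice, but the pEGFR-Lo mice spread widely, with replicates 6 and 3 lowest at 4.81 and 6.10. The means were 10.85 ± 0.35 and 7.82 ± 2.02 (SD, n = 6 each), a difference of 3.03 on the log2 scale (SE 0.68, 8.18-fold, limma adjusted p = 0.00201). Without the 2 low mice it was 3.61-fold (adjusted p = 6.44e-04). With eBayes trend and robust settings the adjusted p was 0.0138 and the gene was not called.

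Cxcl9, a ligand typical of interferon-gamma responses, had values of 8.74, 9.05 and 9.44 in pEGFR-Hi mice, against 3.35, 6.20 and 8.27 in pEGFR-Lo mice. The pEGFR-Hi mice lay within a narrow band above every pEGFR-Lo mouse, and pEGFR-Lo replicates 3 and 6 (3.35 and 3.54) were below background. The difference of the means, 9.09 ± 0.29 and 5.78 ± 2.01, was 3.31 (SE 0.67, 9.93-fold, adjusted p = 8.99e-04). It was 4.43-fold without those 2 mice (adjusted p = 4.16e-04).

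Cxcl11, which binds Cxcr3 and also Ackr3, behaved differently among the pEGFR-Lo mice. Its values were 7.57, 8.14 and 9.51 in pEGFR-Hi mice, against 4.70, 5.20 and 5.71 in pEGFR-Lo mice. Here all pEGFR-Lo mice were low, with replicate 6 lowest at 4.70, replicate 1 next at 4.74 and replicate 3 among the higher ones at 5.43. The difference was 3.05 (SE 0.28, 8.27-fold, adjusted p = 2.44e-07), and 8.0-fold without the 2 mice. The common receptor Cxcr3 was not above background, at 3.97 ± 0.23 in pEGFR-Hi and 4.07 ± 0.15 in pEGFR-Lo.

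**Figure D2:**
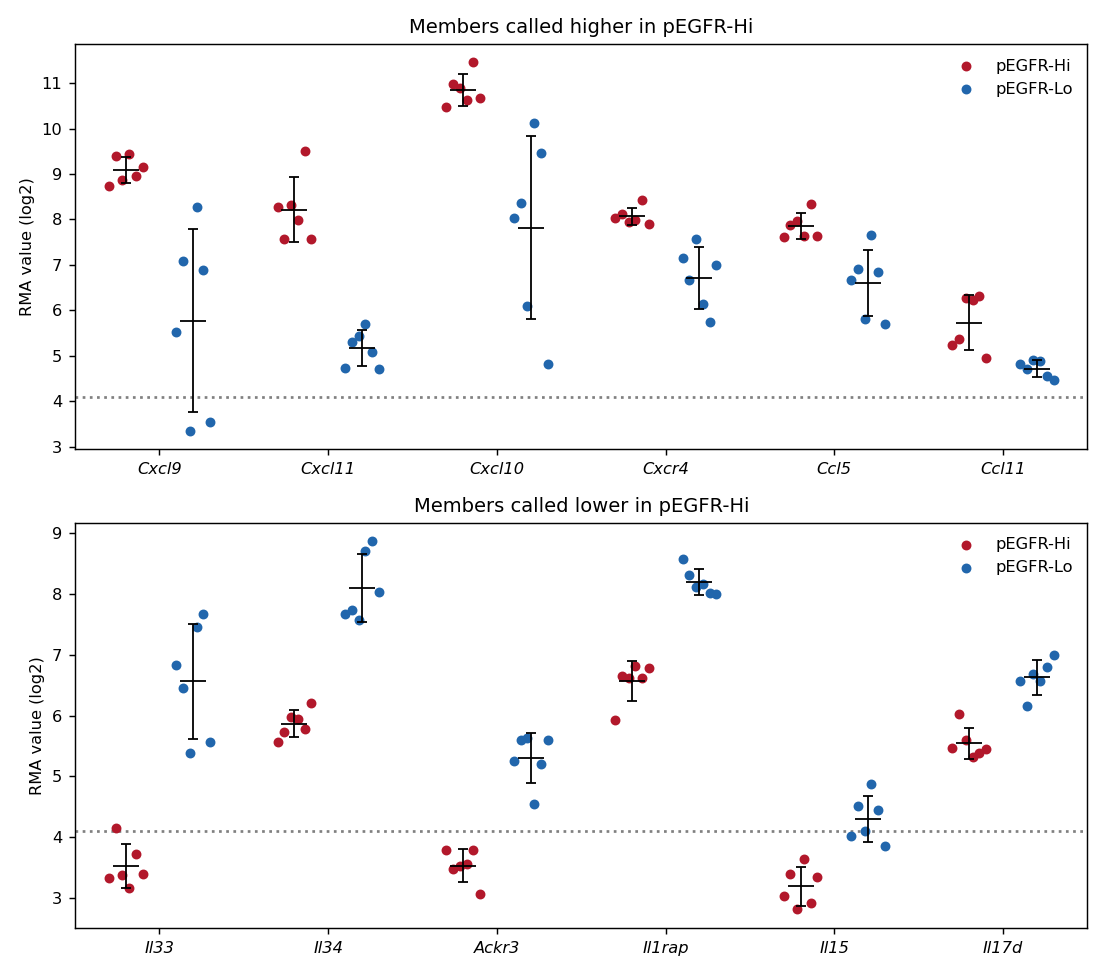
RMA values (log2, vertical axis) of each called gene in each mouse, with pEGFR-Hi mice in red left of pEGFR-Lo mice in blue; long bars are means, error bars are SD over 6 mice, and the dotted line is the background level of 4.10. Only Ccl5 has overlapping groups, and the pEGFR-Lo mice are widely spread for Cxcl9 and Cxcl10 (SD 2.01 and 2.02).

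The other CXC ligands moved less. Cxcl1, a neutrophil attractant, had a mean of 5.68 ± 0.30 in pEGFR-Hi and 5.45 ± 0.06 in pEGFR-Lo (adjusted p = 0.143). Cxcl14, a chemokine of epithelia, averaged 5.65 ± 0.41 and 6.25 ± 0.56 (adjusted p = 0.0603). Cxcl12, the stromal ligand of Cxcr4 and Ackr3, was below background in both groups, at 3.38 ± 0.15 in pEGFR-Hi and 3.53 ± 0.12 in pEGFR-Lo. Cx3cl1, the membrane-bound chemokine of neurons, averaged 7.92 ± 0.31 in pEGFR-Hi and 8.45 ± 0.27 in pEGFR-Lo. Its adjusted p of 0.0104 narrowly missed the limit, and without pEGFR-Lo replicates 3 and 6 it was 0.00454, with a log2 difference of -0.66. These 2 mice, chosen after seeing the data, were its lowest in pEGFR-Lo. Leaving them out had to widen the difference, so the smaller value is no support for a call. Its receptor Cx3cr1, a defining gene of microglia, averaged 5.28 ± 0.08 and 5.13 ± 0.30 (adjusted p = 0.383). Cxcl13 and Cxcl5 had adjusted p-values of 0.00651 and 0.0039 but lay below background in both groups, and no fold is given for them.

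Of the CC chemokines, Ccl5 (RANTES, an attractant of T cells and monocytes) and Ccl11 (eotaxin, an attractant of eosinophils) were called higher in pEGFR-Hi, and none was called lower. Ccl5 had values of 7.61, 7.76 and 8.34 in pEGFR-Hi mice, against 5.70, 6.75 and 7.65 in pEGFR-Lo mice. The groups overlapped through pEGFR-Lo replicate 4, and replicates 6 and 3 were the lowest at 5.70 and 5.82. The difference was 1.25 (SE 0.27, 2.38-fold, adjusted p = 0.00133). Without those 2 mice it was 1.78-fold with an adjusted p of 0.00333, which is below the 2-fold limit.

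Ccl11 had values of 4.96, 5.80 and 6.32 in pEGFR-Hi mice, against 4.46, 4.76 and 4.91 in pEGFR-Lo mice. The pEGFR-Hi mice fell into a higher and a lower set of 3, with replicates 3, 4 and 5 between 6.23 and 6.32 and the others between 4.96 and 5.38. The difference of 1.01 (SE 0.22, 2.02-fold, adjusted p = 0.00152) was close to the 2-fold limit, and the call was lost in 7 of 21 alternative fits, always by the fold. Its receptor Ccr3 was below background in both groups.

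Ccl2 and Ccl7, monocyte attractants that share the receptor Ccr2, were not called. Ccl2 averaged 6.86 ± 0.68 in pEGFR-Hi and 6.98 ± 0.22 in pEGFR-Lo (adjusted p = 0.757), with pEGFR-Hi values from 6.18 to 8.0, the highest in replicate 5. Ccl7 averaged 5.79 ± 0.55 and 5.03 ± 0.44 (adjusted p = 0.0204), again with pEGFR-Hi replicate 5 highest at 6.78. Ccl28, a ligand of Ccr10 made by mucosal epithelia, had values of 3.95, 4.14 and 4.62 in pEGFR-Hi mice, against 4.42, 4.98 and 5.25 in pEGFR-Lo mice. Its difference of -0.73 had an adjusted p of 5.33e-04 but was less than 2-fold. Ccl25, the ligand of Ccr9, differed by -0.49 (adjusted p = 0.00375) on its brightest probe set and by 0.23 on the other, so its direction depended on the probe set. Ccl19, a ligand of Ccr7, averaged 5.02 ± 0.22 in pEGFR-Hi and 4.72 ± 0.29 in pEGFR-Lo (adjusted p = 0.102), and the array cannot tell it from its near-identical copies. Ccl3 and Ccl4, attractants made by activated microglia and macrophages, were below background except in the pEGFR-Lo mean of Ccl3 (3.78 ± 0.23 in pEGFR-Hi and 4.16 ± 0.39 in pEGFR-Lo, adjusted p = 0.0759).

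Among chemokine receptors the receptors of Cxcl12 were called in opposite directions. Cxcr4, which signals through Gi proteins and guides neural progenitors and leukocytes, had values of 7.89, 8.01 and 8.42 in pEGFR-Hi mice, against 5.73, 6.83 and 7.57 in pEGFR-Lo mice. Every pEGFR-Hi mouse was above every pEGFR-Lo mouse, and among pEGFR-Lo mice replicate 3 was the highest and replicate 5 the lowest. The difference was 1.36 (SE 0.24, 2.56-fold, adjusted p = 2.67e-04), and it was 3.13-fold without pEGFR-Lo replicates 3 and 6.

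Ackr3 had values of 3.06, 3.54 and 3.79 in pEGFR-Hi mice, against 4.54, 5.42 and 5.63 in pEGFR-Lo mice. All 6 pEGFR-Hi mice were below background and all 6 pEGFR-Lo mice above it. When the mean of the lower group did not exceed background, background took its place, and the fold is then a bound. Ackr3 was at least 2.30-fold lower in pEGFR-Hi (adjusted p = 6.20e-07). The other chemokine receptors above background, among them Ccr7 (5.06 ± 0.15 in pEGFR-Hi, 5.07 ± 0.12 in pEGFR-Lo) and Ccr10 (5.04 ± 0.13 and 5.09 ± 0.21), were not called.

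Of the interleukins, 4 were called lower in pEGFR-Hi and none was called higher. Il33, an alarmin stored in the nuclei of glia and stromal cells, had values of 3.16, 3.39 and 4.16 in pEGFR-Hi mice, against 5.38, 6.65 and 7.67 in pEGFR-Lo mice. Only pEGFR-Hi replicate 2 was above background, and all pEGFR-Lo mice were, with replicates 3 and 6 lowest. Il33 was at least 5.50-fold lower in pEGFR-Hi (adjusted p = 2.54e-06). Without those 2 mice the bound was at least 8.02-fold.

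Il34, a ligand of the macrophage colony-stimulating factor receptor Csf1r that sustains microglia, had values of 5.56, 5.86 and 6.21 in pEGFR-Hi mice, against 7.57, 7.89 and 8.87 in pEGFR-Lo mice. The groups were far apart, and pEGFR-Lo replicates 4 and 5 were the highest. The difference was -2.23 (SE 0.21, 4.70-fold lower, adjusted p = 3.29e-07). Csf1, the other ligand of Csf1r, averaged 8.29 ± 0.15 in pEGFR-Hi and 8.25 ± 0.34 in pEGFR-Lo (adjusted p = 0.874), a difference whose sign depended on which mice were included. The receptor Csf1r itself was below background, at 3.54 ± 0.15 and 3.74 ± 0.21.

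Il17d, a member of the interleukin-17 family, had values of 5.32, 5.46 and 6.02 in pEGFR-Hi mice, against 6.15, 6.63 and 6.99 in pEGFR-Lo mice. The groups did not overlap, and the difference was -1.09 (SE 0.14, 2.12-fold lower, adjusted p = 1.05e-05). It was 1.98-fold without pEGFR-Lo replicates 3 and 6, just under the limit. Il15, which is carried to T and NK cells on the receptor chain Il15ra, had values of 2.81, 3.19 and 3.64 in pEGFR-Hi mice, against 3.85, 4.27 and 4.88 in pEGFR-Lo mice. No pEGFR-Hi mouse and 4 pEGFR-Lo mice were above background, so that the difference near the floor is at least 1.15-fold (adjusted p = 9.13e-05), and without pEGFR-Lo replicate 4 it was not called.

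Il18, a cytokine of the interleukin-1 family, had values of 7.88, 8.10 and 8.46 in pEGFR-Hi mice, against 8.45, 8.72 and 9.06 in pEGFR-Lo mice, which overlapped only at their edges. Its difference of -0.61 had an adjusted p of 3.52e-04 and was below the 2-fold limit. Il18bp, the soluble protein that neutralizes Il18 and is induced by interferon-gamma, averaged 8.63 ± 0.23 in pEGFR-Hi and 8.67 ± 0.68 in pEGFR-Lo (adjusted p = 0.929). pEGFR-Lo replicates 3 and 6 had 7.87 and 7.71, below all pEGFR-Hi mice, and the other 4 pEGFR-Lo mice had 8.98 to 9.16. Il6 and Il1b, inflammatory cytokines of myeloid cells and glia, were below background in both groups. Il6 averaged 1.86 ± 0.16 in pEGFR-Hi and 1.80 ± 0.24 in pEGFR-Lo. Il1b averaged 4.03 ± 0.11 and 3.91 ± 0.26.

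Of the interleukin receptor chains, Il1rap was called lower and none was called higher. Il1rap is the chain that the receptors for interleukin-1, interleukin-33 and interleukin-36 share. It had values of 5.92, 6.64 and 6.82 in pEGFR-Hi mice, against 8.0, 8.14 and 8.57 in pEGFR-Lo mice. The groups were widely separated, and pEGFR-Hi replicate 1 was the lowest mouse. The difference was -1.62 (SE 0.14, 3.08-fold lower, adjusted p = 1.77e-07).

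Another 3 receptor chains passed the adjusted p limit below 2-fold, all higher in pEGFR-Hi. Il15ra had values of 7.19, 7.39 and 7.55 in pEGFR-Hi mice, against 5.99, 6.61 and 7.03 in pEGFR-Lo mice (log2 difference 0.80, adjusted p = 0.00102). The groups did not overlap, and pEGFR-Lo replicates 6 and 3 were the lowest, at 5.99 and 6.15. Without them the difference was 0.55 (adjusted p = 0.00294). Il3ra, the alpha chain of the interleukin-3 receptor, had values of 6.10, 6.32 and 6.55 in pEGFR-Hi mice, against 5.37, 5.54 and 5.69 in pEGFR-Lo mice (0.80, adjusted p = 2.66e-06), with tight and separate groups. Il4ra, the chain that interleukin-4 and interleukin-13 receptors share, averaged 5.69 ± 0.16 in pEGFR-Hi and 5.16 ± 0.35 in pEGFR-Lo (0.52, adjusted p = 0.00723), with overlapping groups. Il17rc, a chain of the interleukin-17 receptor, averaged 7.76 ± 0.08 and 7.13 ± 0.55 and was not called (log2 difference 0.63, adjusted p = 0.0175). Without pEGFR-Lo replicates 3 and 6 its difference was 0.32 (adjusted p = 0.0718).

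The remaining cytokines were not called. Lif, an interleukin-6 family cytokine that sustains neural stem cells, had values of 6.03, 6.54 and 6.86 in pEGFR-Hi mice, against 5.06, 6.06 and 6.26 in pEGFR-Lo mice (log2 difference 0.64, adjusted p = 0.0112), with overlapping groups, and a difference of 0.40 without pEGFR-Lo replicates 3 and 6 (adjusted p = 0.0352). Mif, a cytokine made by most cells that binds Cd74, averaged 12.77 ± 0.13 in pEGFR-Hi and 12.66 ± 0.17 in pEGFR-Lo (adjusted p = 0.417). Its probe sets cannot be told from near-identical copies of the gene. Csf3, the granulocyte colony-stimulating factor, was near background at 4.38 ± 0.26 and 4.48 ± 0.20 (adjusted p = 0.616). The other listed cytokines were below background in both groups. Csf2 averaged 2.77 ± 0.18 in pEGFR-Hi and 2.66 ± 0.20 in pEGFR-Lo, Osm 3.18 ± 0.30 and 2.92 ± 0.09, and Tnf 3.81 ± 0.28 and 3.76 ± 0.18, with 1 pEGFR-Hi mouse above background for Tnf.

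The order of the mice within each group was not the same for all genes. pEGFR-Lo replicates 3 and 6 were the lowest 2 of their group for 12 of the 57 genes above background (21.1%), against 7.77% of all 13519 genes above background. These 12 were Cxcl9, Cxcl10, Ccl5, Ccl2, Ccl19, Cx3cl1, Il33, Il18bp, Il15ra, Il17rc, Lif and Csf1. Replicates 3 and 6 were the highest 2 for 4 genes (7.02%), Ackr3, Il17ra, Il17rb and Il12a, against 7.42% of all genes above background. Taken alone, pEGFR-Lo replicate 3 was the lowest for 15.8% of the 57, against 23% of all genes above background. It was the highest for 24.6%, against 17%. pEGFR-Lo replicate 6 was the lowest for 24.6%, against 13.8%, and replicate 4 the highest for 22.8%, against 12.1%. pEGFR-Hi replicate 5, whose interferon response mean of 8.98 was the highest of all mice, was the highest of its group for 21 of the 57 (36.8%), against 17.1% of all genes above background. Genes of both directions took part, since Il33 and Cx3cl1 were lower in the pEGFR-Hi mean and Cxcl9 and Cxcl10 higher. No test was made of these shares.

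**Figure D3:**
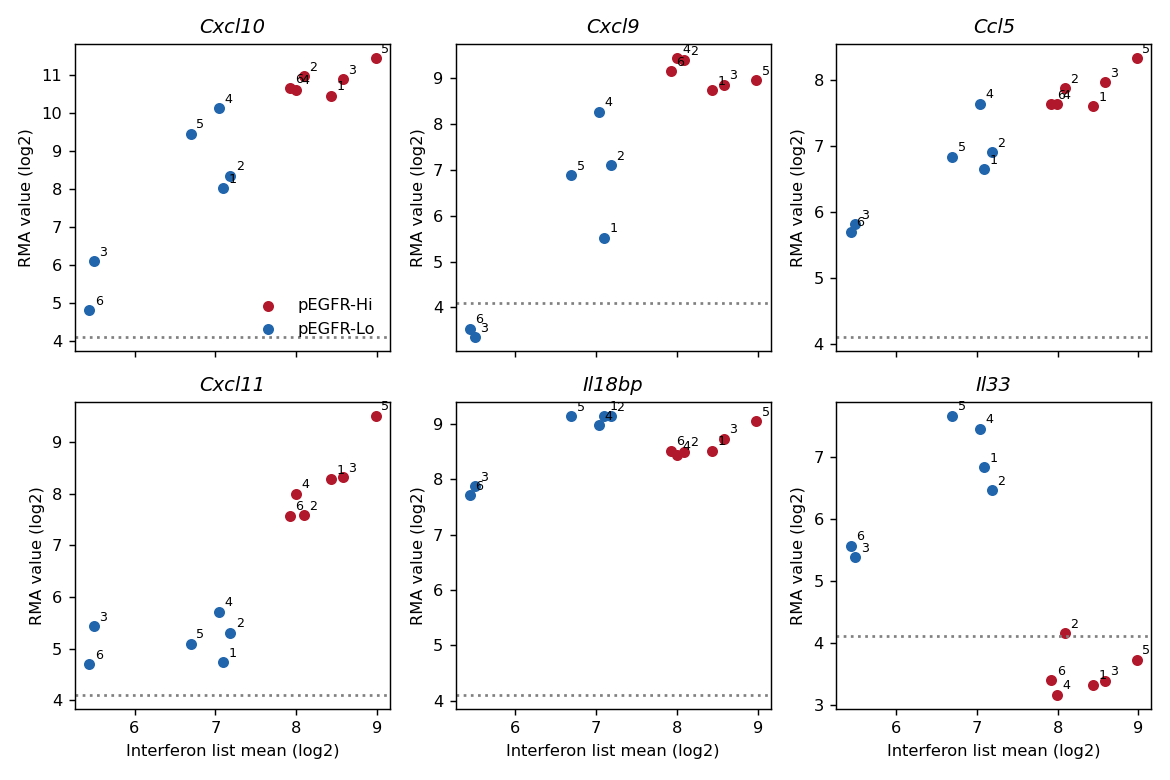
RMA value (log2, vertical axis) of 6 genes in each mouse against the mean RMA value of 26 interferon response genes in the same mouse (log2, horizontal axis), with pEGFR-Hi in red, pEGFR-Lo in blue, replicate numbers beside the points and the background level of 4.10 as a dotted line. pEGFR-Lo replicates 3 and 6 are the lowest 2 of their group for Cxcl10, Cxcl9, Ccl5, Il18bp and Il33, while for Cxcl11 replicate 6 is the lowest (4.70) and replicate 3 (5.43) is not.

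Partner receptors that the symbol rule leaves out, and the genes that relay these signals, were set beside the ligands. Of 26 interferon response genes, 21 were called higher in pEGFR-Hi (80.8%, against 3.99% of all genes) and none lower, with a median log2 difference of 1.71, against 0.010 over all genes. The called genes with the smallest adjusted p were the RNA sensor regulator Dhx58 (difference 2.68), the transcription factor Irf7 (3.05), and Oas2 (2.43) and Oasl1 (1.73) of the oligoadenylate synthetase family. Without pEGFR-Lo replicates 3 and 6, 18 were called, the median was 1.27, and Dhx58 and Irf7 differed by 2.30 and 2.51. Of 21 JAK, STAT and SOCS genes, Stat2, which transmits type I interferon signals, was 2.83-fold higher (adjusted p = 5.15e-04) and Socs3, a feedback inhibitor induced by STAT3, was 2.76-fold higher (adjusted p = 1.42e-06). They were 9.52% of the list, against 3.99% of all genes, and the list median was 0.25. Stat2 was 2.12-fold higher without pEGFR-Lo replicates 3 and 6.

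Of 25 genes that carry interleukin-1 and TNF signals to NF-kB, 5 were called higher (20%) and none lower, against 3.99% and 5.06% of all genes, with a median of 0.33, against 0.010 over all genes. These were the subunits Rel (2.97-fold, adjusted p = 2.27e-07) and Nfkb2 (2.97-fold, 3.05e-07), the inhibitor family genes Nfkbiz (2.04-fold, 7.19e-07) and Nfkbie (2.24-fold, 9.33e-05), and the adaptor Myd88 (2.43-fold, 2.84e-06). Nfkbiz and Nfkbie fell below 2-fold, at 1.91-fold and 1.92-fold, without pEGFR-Lo replicates 3 and 6, and Myd88 was then 2.13-fold higher. While Il1rap, at the top of the interleukin-1 arm of this route, was lower in pEGFR-Hi, the called relay genes were higher. The TNF receptor gene Tnfrsf1a was not called, at 9.46 in pEGFR-Hi and 9.50 in pEGFR-Lo.

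Of 24 receptors and shared chains outside the symbol rule, Il12rb1, a chain of the interleukin-12 and interleukin-23 receptors, was 2.25-fold higher (adjusted p = 4.23e-04), and the adhesion receptor Cd44 was 2.08-fold higher (adjusted p = 9.67e-06). These were 8.33% of the list, against 3.99% of all genes called higher, and the list median was 0.17. Without pEGFR-Lo replicates 3 and 6 neither reached 2-fold (1.86-fold and 1.80-fold), and Cd74 was called lower by 2.18-fold. With all mice Cd74, the receptor of Mif and the chaperone of MHC class II, was not called, with means of 9.99 ± 0.26 in pEGFR-Hi and 10.26 ± 1.43 in pEGFR-Lo.

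Of 28 genes of the relay below chemokine receptors, 5 were called lower in pEGFR-Hi (17.9%, against 5.06% of all genes and 7.23% of those above background) and none higher. The counts were the same in all 20 alternative fits compared, and the list median was -0.10, against 0.010 over all genes. Rgs16, which shortens Gi signals, was 27.0-fold lower (5.44 ± 0.30 in pEGFR-Hi and 10.20 ± 0.37 in pEGFR-Lo, adjusted p = 7.74e-12). Grk3, a kinase that turns off activated receptors, was 7.35-fold lower, and the Gi subunit Gnai1 at least 5.45-fold lower. The subunit Gng2 and the Rac activator Prex1 were 4.01-fold and 4.06-fold lower. Uncalled genes of the list went both ways below 2-fold. Arrb2 (1.85-fold, adjusted p = 4.13e-07) and Tiam1 (1.71-fold, 8.51e-07) were higher. Arrb1 (1.57-fold, 6.59e-05) and Elmo1 (1.62-fold, 2.14e-05) were lower. Cxcr4 was thus higher in the same samples in which the 5 called relay genes were lower.

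**Figure D4:**
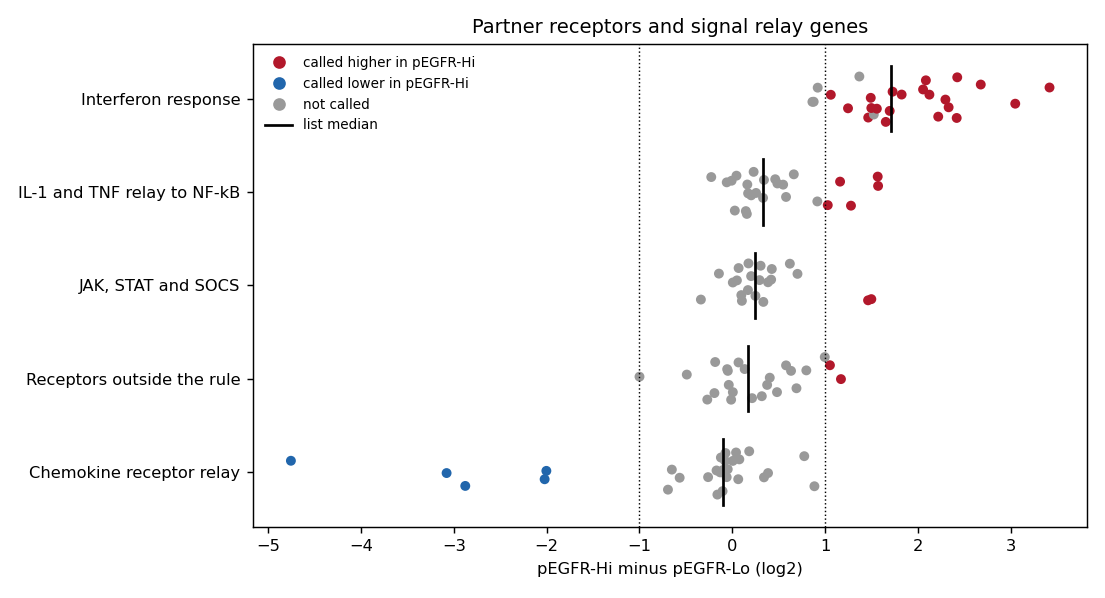
Each point is 1 gene of a list, placed by its pEGFR-Hi minus pEGFR-Lo difference (log2, horizontal axis); red points are called higher and blue points lower in pEGFR-Hi, grey points are not called, black bars are list medians and dotted lines mark 2-fold. The medians run from 1.71 for interferon response genes to -0.10 for the chemokine receptor relay, whose 5 called genes are all lower.

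Of 51 ligand and receptor pairs with both genes measured, 7 had both above background in the pEGFR-Hi means and 9 in the pEGFR-Lo means. The 7 were Ccl19 with Ccr7, Ccl28 with Ccr10, Cx3cl1 with Cx3cr1, Mif with Cd74, Lif with Lifr, Il13 with Il13ra1 and Il12b with Il12rb1, and these were also above background in pEGFR-Lo. Il15 with Il15ra and Il12a with Il12rb1 were added in pEGFR-Lo. Il2rb, a signaling chain of the interleukin-15 receptor, was below background, at 3.33 ± 0.11 in pEGFR-Hi and 3.46 ± 0.22 in pEGFR-Lo. Its partner chain Il2rg was not measured, so the Il15 pair is not a whole receptor either. Il12a and Il12b are chains of the same cytokine, interleukin-12, and both were paired with Il12rb1 only. The other chain of the interleukin-12 receptor, Il12rb2, was below background, at 3.53 ± 0.17 in pEGFR-Hi and 3.46 ± 0.09 in pEGFR-Lo. The pairs with Il12rb1 thus do not amount to a whole interleukin-12 receptor above background. None of the called chemokines Cxcl9, Cxcl10, Cxcl11, Ccl5 and Ccl11 had a measured receptor above background in these pairs, and neither had Il34. The atypical receptor Ackr3, which also binds Cxcl11, was above it in pEGFR-Lo alone. Several pairs rest on values near background. Il13 averaged 4.46 in pEGFR-Hi and 4.34 in pEGFR-Lo, Il12b 4.32 and 4.31, and Ccl28 4.19 in pEGFR-Hi. In pEGFR-Lo, Il15 averaged 4.30 and Il12a 4.42. All these means are below 4.85, the background level at the 99th percentile of olfactory receptor means.

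Markers of other cells that a sorted sample could hold had list means near or below background, apart from the pericyte list. The mean over 22 microglia and macrophage markers was 3.86 to 4.06 in pEGFR-Hi mice and 3.98 to 4.44 in pEGFR-Lo mice, and 10 of the 22 were above background over all mice. Csf1r, Aif1, Ptprc and Itgam were below background in both groups, while Olfml3 (6.43 in pEGFR-Hi, 7.36 in pEGFR-Lo), Trem2 (5.02 and 5.05), Tmem119 (4.56 and 4.91), C1qc (4.36 and 4.63) and Tyrobp (4.20 and 4.44) were above it in both. Of this list Cd68 (6.48 in pEGFR-Hi and 5.24 in pEGFR-Lo) was called higher, by 2.36-fold. P2ry12 (4.69 and 6.43) was called lower, by 3.36-fold. The mean over 14 T, B and NK cell markers was 3.26 to 3.40 in pEGFR-Hi mice and 3.23 to 3.42 in pEGFR-Lo mice, and none was called. Neutrophil markers averaged 3.40 to 3.53 in pEGFR-Hi mice and 3.53 to 3.70 in pEGFR-Lo mice, with 1 of 12 called, lower. Endothelial markers averaged 3.49 to 3.82 and 3.76 to 3.96, with 1 of 11 called, lower. Oligodendrocyte markers averaged 3.71 to 3.87 and 4.08 to 4.25, with 1 of 9 called, lower. The called neutrophil marker was Lcn2 (4.89 in pEGFR-Hi and 6.81 in pEGFR-Lo, 3.77-fold). Eng (4.66 and 6.1, 2.7-fold) was the called endothelial marker and Ermn (3.28 and 5.46, at least 2.57-fold) the called oligodendrocyte marker. The 10 pericyte and smooth muscle markers averaged 4.55 to 5.04 in pEGFR-Hi mice and 4.72 to 5.20 in pEGFR-Lo mice, with Anpep called higher and Rgs5 lower (at least 11.2-fold). Neuron markers averaged 3.64 to 3.70 and 3.73 to 3.96, with 0 of 12 called. The 11 tumor and neural progenitor markers averaged 8.54 to 8.74 in pEGFR-Hi mice and 8.72 to 8.79 in pEGFR-Lo mice, with 2 called higher and 2 lower. These were Prom1 (at least 3.58-fold) and Gfap (2.69-fold) upward, and Fabp7 (2.58-fold) and Slc1a3 (13.6-fold) downward. The part of other cells in the chemokine and cytokine differences was not tested.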

How the data were processed

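RNA of ZsGreen-positive tumor cells from 12 mice, 6 per group by the sample labels, was analysed. The authors deposited log2 values made with RMA in Affymetrix Expression Console (versions not given in the sources used here), for 35556 probe sets with 0 missing values. Array medians were 4.81 to 4.88, and the number of arrays limits the precision. Probe sets with 1 gene symbol (21789 sets; 1621 had several symbols and 12146 none) were named, and 21698 matched RefSeq of GRCm38.p6 by Entrez ID. The brightest probe set per gene was used, for 19938 genes.

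Groups were compared with limma 3.58.1 in R 4.3.3 (lmFit, eBayes), with Benjamini-Hochberg adjustment over all genes. Alternatives were SAM, the study's test, with 100 permutations, 2 other normalizations, a filter on dim genes, the replicate block, other variance settings, array weights, a looser limit (adjusted p under 0.05 at any fold), averaged probe sets, other background levels and leaving out mice. Leaving out pEGFR-Lo replicates 3 and 6 together was chosen after seeing the data. In simulated data for this comparison over 19938 genes, limma and SAM each called 100 of 100 genes with a log2 change of 1.5. They also called 100 of 100 with a change of 2 and 0 of 19738 unchanged ones. The changed genes were drawn without the most variable genes, and the noise was normal with equal SD in both groups. Cxcl9 and Cxcl10, which spread far more in pEGFR-Lo than in pEGFR-Hi, are not covered by this setting.

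Values are given for called genes, genes past the adjusted p limit without 2-fold, the 5 highest ligands and receptors, the 5 most variable genes and the listed genes. Of each signaling list, up to 4 called genes per direction are named by smallest adjusted p, or all where 5 were called. Ccl2, Ccl3, Ccl4, Ccl7, Ccl19, Cxcl1, Cxcl12, Cxcl14, Cxcr3, Ccr3, Ccr7, Ccr10, Il1b, Il2rb, Il6 and Il18bp were added after their values were seen. The genes and lists were chosen with earlier results of these data known. Some genes of the families were not analysed here.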

Additional observations from a re-analysis of the deposited data

Results flagged for a closer look

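In pEGFR-Hi replicate 1 the RMA value of Il1rap was 5.92, while the other 5 pEGFR-Hi mice had 6.62 to 6.82. The gap to the nearest mouse was 0.776 of the group's range, above Dixon's 95% critical value for 6 mice. In pEGFR-Lo replicate 1 the value of Csf3 was 4.08, just under background, while the other 5 pEGFR-Lo mice had 4.48 to 4.59 (gap 0.772 of the range). These were 2 of 56 groups examined, over 28 genes and both tumor types, and chance alone flags about 1 group in 20. The call of Il1rap did not depend on the low mouse, since the log2 difference lay between -1.67 and -1.49 when any single mouse was left out.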

How the results depend on the processing

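The numbers of genes called, 6 higher and 6 lower in pEGFR-Hi, stayed within 5 to 6 in each direction when any 1 mouse was left out. With an adjusted p under 0.05 and no fold limit, 18 genes were higher and 12 lower. SAM called 6 and 6. Of the 118 genes, 37 were above background when it was set at the 99th percentile of olfactory receptor means in place of the 95th. Ccl11 was lost with array weights and without pEGFR-Hi replicate 3, 4 or 5 or pEGFR-Lo replicate 5 or 6, and Il15 without pEGFR-Lo replicate 4; the filter on dim genes left out Il15. Without pEGFR-Lo replicates 3 and 6 together, 4 genes were called higher and 5 lower, with Ccl5, Ccl11 and Il17d under 2-fold. The sign turned for Csf1, whose log2 difference ranged from -0.056 to 0.12 when 1 mouse was left out (-0.0010 without pEGFR-Hi replicate 3, -0.028 without pEGFR-Lo replicate 3) and was -0.16 without pEGFR-Lo replicates 3 and 6. It also turned for Tnf, with a range of -0.053 to 0.11. The cause was not tested. Over the named genes and their alternatives, 568 values kept direction and call status, 11 lost the call and 5 changed sign. The lost calls and changed signs all lie in the cases given here and in that of Cxcl10 with eBayes trend and robust. Call status joins both limits, so a value could cross the adjusted p limit alone, as Cx3cl1 did without pEGFR-Lo replicates 3 and 6. Replicate numbers did not pair the mice (correlations of same-numbered mice -0.137 to 0.0974, own number the best match for 1 of 6), and a fit with the replicate block called 6 and 6 genes. Signal over background limits the genes near an RMA value of 4.10, Il15 among them, to bounds.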
